A study of Mus musculus with 6 samples.

Results

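The genes that copy DNA were compared between motor neurons (MNs) made from control and spinal muscular atrophy (SMA) mouse embryonic stem cells (mESCs). The set was a list of 43 gene symbols that covered the origin recognition complex, the factors that load and activate the MCM helicase, the replicative polymerases, the sliding clamp and its loader, the enzymes that join lagging strand fragments, the single-strand binding protein RPA and the enzymes that make deoxynucleotides. Each symbol was matched to the deposited gene table, and 41 of the 43 were found among its 41945 entries. The levels of Cdt1 and Gins2 were not analysed here. All 41 passed the filter of at least 1 FPKM (fragments per kilobase of transcript scaled to the mapped fragments, a level per length) in either genotype, along with 14926 genes in all.

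RNA was sequenced from 6 samples, 3 of each genotype, all in the FVB/N background. Hb9 control MNs came from an mESC line labelled wildtype, which carried the SMN2 transgene and intact mouse Smn (SMN2+/+;mSmn+/+), and A2 SMA MNs came from an mESC line that carried the same transgene and no functional mouse Smn (SMN2+/+;mSmn-/-). Both lines also carried an HB9:eGFP reporter, in which the promoter of the MN gene Mnx1 drives green fluorescent protein, and both were made into embryoid bodies, treated with 1 µM retinoic acid and 1 µM Smoothened agonist for 5 days, dissociated and sorted for green fluorescence. Each genotype was 1 mESC line, so genotype and line cannot be told apart. Nothing in the labels said whether the 3 samples of a line came from separate differentiations.

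The table held 1 pooled FPKM value per gene and genotype, made by the authors from the 3 samples. No spread between samples could therefore be set beside a difference, and no test was made. A difference is given as the log2 ratio of the FPKM in A2 SMA MNs to the FPKM in Hb9 control MNs, read against the same quantity over all 14926 genes. The median gene had a log2 ratio of −0.29, so each log2 ratio is also described relative to that median gene where the scaling changes its direction. Where a pair of FPKM values is given, the value of the Hb9 control comes first. The reads behind each value are unknown from the table. In RNA from whole populations of sorted cells, more cells of a type and more RNA per cell cannot be told apart.

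As a check of the labels, Smn1 had 137 FPKM in the Hb9 control and 5.26 FPKM in A2 SMA, a log2 ratio of −4.70. Mnx1, whose promoter drives the sorted reporter, had 41.2 FPKM in the Hb9 control and 44.2 FPKM in A2 SMA. The labelled cell type was checked against defining markers. Of the MN markers, 6 of 7 compared were lower in A2 SMA MNs by at least 2-fold, and their summed level was 242 FPKM in the Hb9 control and 63.9 FPKM in A2 SMA. Without Mnx1 that sum was 201 and 19.7 FPKM. By these transcripts the label MN was borne out less well in A2 SMA than in the Hb9 control. The name A2 SMA MNs is used here as the label of the sorted samples. None of the marker genes found in the table was listed at 0 in either genotype.

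DNA replication starts at origins bound by the origin recognition complex (ORC). In G1, ORC and Cdc6, with Cdt1, load the MCM2-7 ring on DNA, and in S phase Cdc45, GINS and Mcm10 turn that ring into an active helicase that the polymerases follow. Many of these genes are transcribed in waves under E2F factors as cells enter S phase, and MNs are known as cells that have left the cell cycle, while mESCs cycle rapidly with a short G1.

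Because E2F sites are known in promoters of replication genes, promoter windows from RefSeq (build GRCm38.p6, 250 bases before to 50 bases after each transcription start) were searched for the letters TTTCGCGC, TTTGGCGC, TTTCCCGC and TTTGCCGC on both strands. The stretches below are the 170 bases before the start, 5′ to 3′ on the strand of the gene, with every E2F match in capitals. They are shown for Pola1, Orc1, Mcm5 and Mcm6, which have matches before the start and log2 ratios among the higher ones of the set, for Rfc3, which has a match and a log2 ratio just under 0, and for Mcm10 and Rrm1, which have no match in their windows and log2 ratios at the higher and the lower end of the set. Orc2, also among the higher log2 ratios, has no match in its windows either. The stretches lie at chrX:93632156-93632325 on the minus strand for Pola1, chr4:108579284-108579453 on the plus strand for Orc1, chr8:75109339-75109508 on the plus strand for Mcm5, chr1:128359706-128359875 on the minus strand for Mcm6, chr5:151651209-151651378 on the minus strand for Rfc3, chr2:5012792-5012961 on the minus strand for Mcm10 and chr7:102441525-102441694 on the plus strand for Rrm1.
Pola1: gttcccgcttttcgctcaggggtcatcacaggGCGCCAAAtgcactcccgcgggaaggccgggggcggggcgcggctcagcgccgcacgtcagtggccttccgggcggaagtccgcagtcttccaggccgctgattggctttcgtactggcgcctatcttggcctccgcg
Orc1: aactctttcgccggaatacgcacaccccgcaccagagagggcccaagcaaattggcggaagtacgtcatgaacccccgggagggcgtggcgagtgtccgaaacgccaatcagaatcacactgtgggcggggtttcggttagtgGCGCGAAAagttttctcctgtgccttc
Mcm5: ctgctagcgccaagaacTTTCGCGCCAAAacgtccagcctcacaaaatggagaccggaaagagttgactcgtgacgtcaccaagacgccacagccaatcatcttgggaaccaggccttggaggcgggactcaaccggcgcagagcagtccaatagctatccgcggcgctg
Mcm6: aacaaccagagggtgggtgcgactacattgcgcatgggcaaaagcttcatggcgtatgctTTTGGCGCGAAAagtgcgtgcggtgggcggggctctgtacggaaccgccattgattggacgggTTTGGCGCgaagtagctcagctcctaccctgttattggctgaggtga
Rfc3: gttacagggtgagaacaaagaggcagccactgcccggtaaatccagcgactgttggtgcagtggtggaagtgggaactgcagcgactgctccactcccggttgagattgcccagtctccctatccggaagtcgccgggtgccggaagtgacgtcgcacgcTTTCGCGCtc
Mcm10: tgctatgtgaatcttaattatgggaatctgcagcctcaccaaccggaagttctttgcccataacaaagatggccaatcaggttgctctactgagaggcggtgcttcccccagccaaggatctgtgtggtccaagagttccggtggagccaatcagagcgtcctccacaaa
Rrm1: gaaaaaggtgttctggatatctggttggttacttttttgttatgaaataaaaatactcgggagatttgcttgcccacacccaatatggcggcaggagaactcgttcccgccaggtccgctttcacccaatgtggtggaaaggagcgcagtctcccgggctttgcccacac

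In the Mcm5 and Mcm6 stretches, 2 matches on opposite strands overlap in a single run of capitals. The letters of a match do not show that a factor was bound there.

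Transcripts of the replication genes were higher in A2 SMA MNs in most cases, by small amounts. Of the 41 genes, 35 (85.4%) had a higher FPKM in A2 SMA MNs, where 34.1% of all genes did, and 6 had a lower FPKM. The median log2 ratio was 0.42, with quartiles of 0.13 and 0.64, against quartiles of −0.89 and 0.19 over all genes. At least 1.5-fold higher were 12 of the 41 (29.3%), against 12.7% of all genes. None was at least 1.5-fold lower, against 35.4% of all genes.

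Few of the genes were past 2-fold. The 3 genes that were at least 2-fold higher, Orc1, Mcm3 and Pola1, made up 7.32% of the set, against 6.83% of all genes. On the lower side none of the 41 was past 2-fold, against 22.4% of all genes. Every member's log2 ratio lay between the 5th and the 95th percentile of all genes. The whole set ran from −0.44 for Orc4 to 1.13 for Pola1, and the plot of log2 ratios by role shows this narrow band against the quartiles of all genes.

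**Figure D1:**
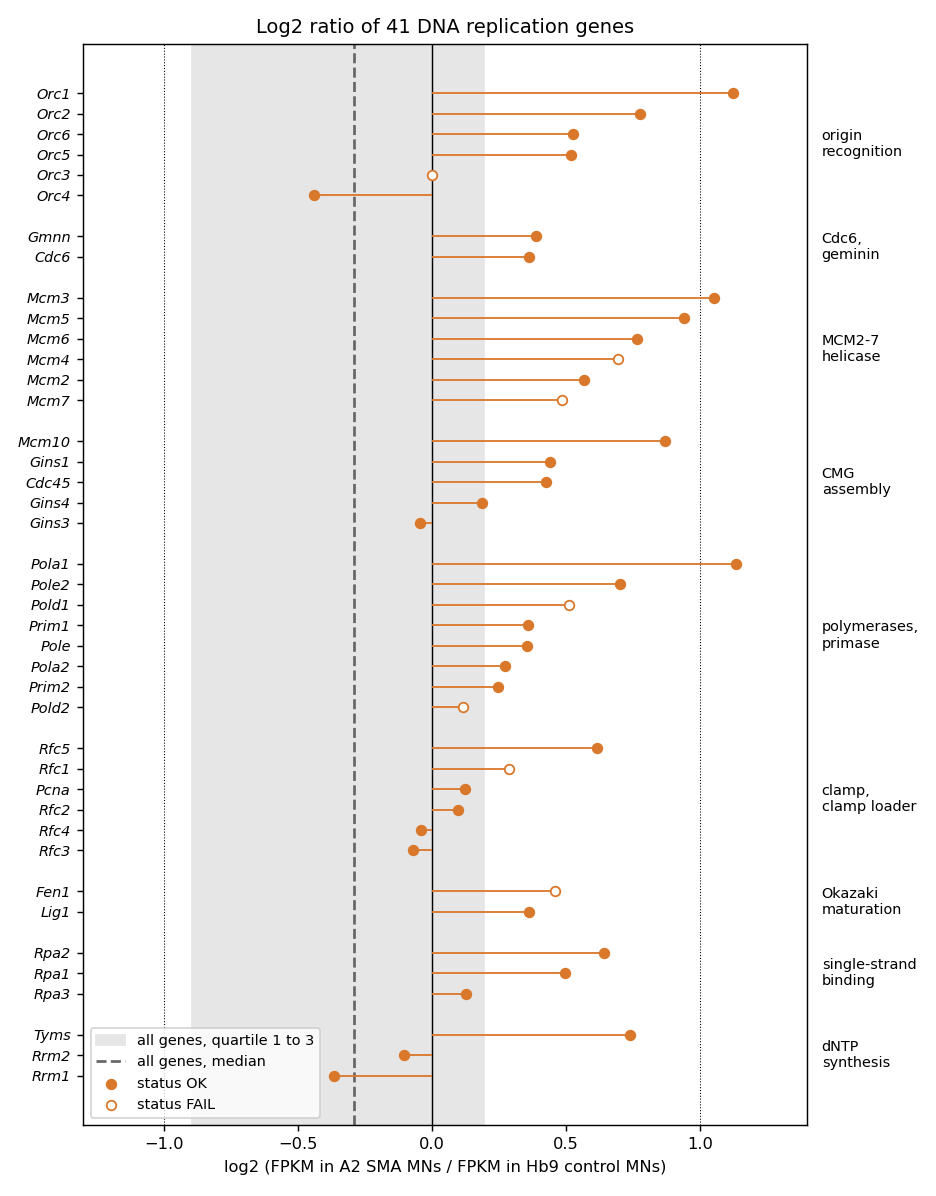
Log2 ratio of FPKM in A2 SMA MNs over Hb9 control MNs (x axis) for 41 replication genes grouped by role (y axis), with 1 point per gene from 1 pooled value per genotype and open points for entries of status FAIL. The shaded band spans the quartiles of all 14926 genes (−0.89 to 0.19), the dashed line their median (−0.29) and dotted lines a 2-fold ratio; 35 points lie above 0 and none lies past 2-fold lower.

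Relative to the median gene, 39 of the 41 (95.1%) were higher and the median log2 ratio was 0.71. On that scale 8 of the 41 (19.5%) were at least 2-fold higher, against 10.4% of all genes. The genes were also abundant. Their median level was 56.4 FPKM in the Hb9 control and 69.4 FPKM in A2 SMA, against 17.6 and 12.9 FPKM over all genes, and 37 of 41 lay above the median gene's level in Hb9 control MNs and 40 of 41 in A2 SMA MNs. Because abundant genes could differ from rare ones, the 9136 genes whose geometric mean level lay in the range of the set (8.44 to 241 FPKM) were also summarised, a choice made after the values were seen. Of these, 33.5% were higher in A2 SMA MNs, 3.52% were at least 2-fold higher (6.79% relative to the median gene), and the median log2 ratio was −0.24. Their median level was 33.8 FPKM in the Hb9 control and 27.0 FPKM in A2 SMA, below that of the set. They therefore share the range of the set but not its typical level.

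**Figure D2:**
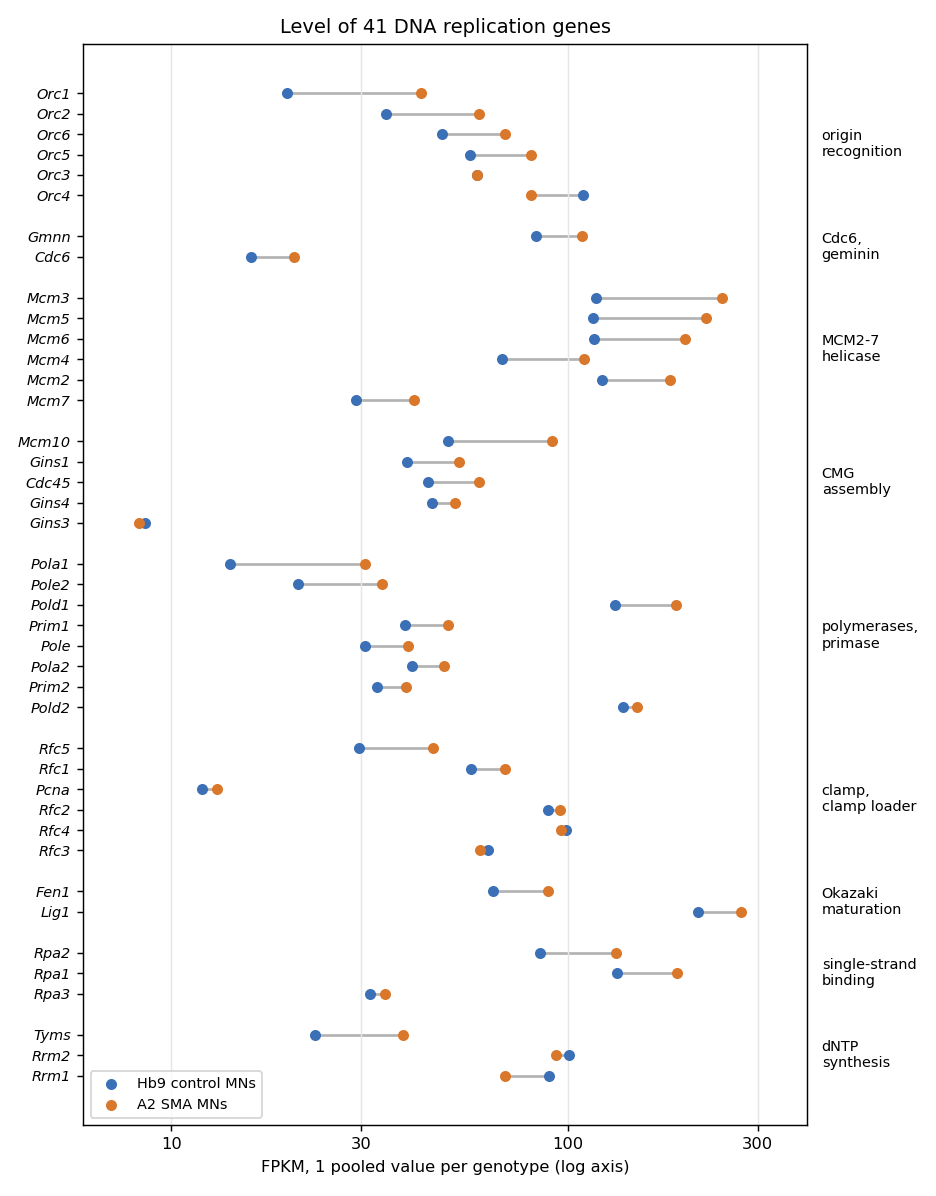
FPKM (x axis, log scale) of 41 replication genes grouped by role (y axis) in Hb9 control MNs (blue) and A2 SMA MNs (orange), 1 pooled value per genotype, with a grey line joining the pair. Levels run from 8.31 FPKM for Gins3 to 273 FPKM for Lig1, and the orange point lies to the right for 35 genes.

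The order of the genes by level was largely kept between the genotypes. Across the 41 genes, which share the same libraries, Pearson's r of the log2 levels was 0.943 and Spearman's rho was 0.948. The log2 ratio had almost no linear relation to the log2 level averaged over both genotypes (r = 0.036 over the same genes). Abundant and scarce members therefore had like log2 ratios on average.

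ORC, which marks origins, had a median log2 ratio of 0.52 over its 6 subunits. Orc1, an ATPase of the complex whose level is known to vary through the cell cycle, lies on chromosome 4 from 108252028 to 108292454 (NCBI m37) and had 19.6 FPKM in the Hb9 control and 42.6 FPKM in A2 SMA, 2.18-fold higher. Orc2 had 34.7 and 59.5 FPKM, a log2 ratio of 0.78. Orc1 and Orc2 were above the 90th percentile of the log2 ratios of all genes. Orc5 had 56.4 FPKM in the Hb9 control and 80.7 FPKM in A2 SMA, a log2 ratio of 0.52. Orc6, the smallest subunit, had 48.2 and 69.4 FPKM, a log2 ratio of 0.53. The other two subunits were not appreciably higher. Orc3 had 58.8 FPKM in the Hb9 control and 58.9 FPKM in A2 SMA, equal to within 0.01 on the log2 scale, although it counts among the 35 genes above 0. Orc4 had 109 and 80.5 FPKM, a log2 ratio of −0.44, the lowest of the set. Its locus is shared with other expressed genes, Acvr2a among them, so the level of Orc4 is uncertain. Orc1 was the scarcest and Orc4 the most abundant ORC transcript in Hb9 control MNs, and the highest level was 5.58 times the lowest there and 1.89 times in A2 SMA MNs. As listed, levels within the complex were thus closer to each other in A2 SMA MNs.

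Cdc6, the ATPase that loads MCM with ORC, had 15.8 FPKM in the Hb9 control and 20.3 FPKM in A2 SMA, a log2 ratio of 0.36. Gmnn encodes geminin, which inhibits Cdt1 and so blocks loading again within the same cycle. It had 82.8 and 108 FPKM, a log2 ratio of 0.39. The loader and the inhibitor of loading were therefore higher by like amounts.

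The 6 subunits of the MCM2-7 ring had the highest median log2 ratio of any role in the set, 0.73. All 6 were higher, where 34.1% of all genes were. Their summed level was 568 FPKM in the Hb9 control and 994 FPKM in A2 SMA. Mcm3 (chromosome 1, 20793055 to 20810371) had 118 FPKM in the Hb9 control and 244 FPKM in A2 SMA, 2.07-fold higher. Mcm5 had 116 and 222 FPKM, a log2 ratio of 0.94. Mcm6 had 116 and 197 FPKM, a log2 ratio of 0.77. These 3 subunits had nearly the same level in Hb9 control MNs. Mcm2 had 122 FPKM in the Hb9 control and 181 FPKM in A2 SMA, a log2 ratio of 0.57. Mcm4 had 67.9 and 110 FPKM, a log2 ratio of 0.69. Mcm7 stood apart from the rest of the ring in level, with 29.2 and 40.9 FPKM and a log2 ratio of 0.49. Its entry in the table also holds the microRNA genes Mir25 and Mir93, which lie within it, so its level beside the other subunits is uncertain. With Mcm7 the highest MCM level was 4.18 times the lowest in Hb9 control MNs and 5.96 times in A2 SMA MNs, and without it 1.80 and 2.22 times. Mcm4 and Mcm7 were among the 7 members (17.1%) whose entry carried Cuffdiff's status FAIL, against 14% of all genes. That status is a mark that Cuffdiff's own comparison failed numerically. The others were Orc3, Pold1, Pold2, Rfc1 and Fen1. Leaving out MCM2-7 altogether, 29 of 35 members (82.9%) were higher, against 34.1% of all genes, and the median log2 ratio was 0.36.

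Of the 5 measured genes that turn MCM2-7 into the active Cdc45-MCM-GINS helicase (CMG), 4 (80.0%) were higher, against 34.1% of all genes. Mcm10, needed to activate the helicase, had 49.7 FPKM in the Hb9 control and 90.8 FPKM in A2 SMA, a log2 ratio of 0.87. Cdc45 had 44.4 and 59.6 FPKM, a log2 ratio of 0.42. The measured GINS subunits did not differ alike. Gins1 had 39.2 FPKM in the Hb9 control and 53.2 FPKM in A2 SMA, a log2 ratio of 0.44. Gins4 had 45.4 and 51.7 FPKM, a log2 ratio of 0.19. Gins3, the least abundant gene of the set, had 8.57 and 8.31 FPKM, a log2 ratio of −0.05 that was 0.24 relative to the median gene. The most abundant measured GINS transcript had 5.30 times the level of Gins3 in the Hb9 control and 6.40 times in A2 SMA.

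All 8 polymerase and primase genes were higher in A2 SMA MNs, against 34.1% of all genes, with a median log2 ratio of 0.36. Pola1 (chromosome X, 90550106 to 90877495), the catalytic subunit of the polymerase alpha that starts each new strand, had 14.02 FPKM in the Hb9 control and 30.7 FPKM in A2 SMA, 2.19-fold higher and the highest ratio of the set. Its partner Pola2 had 40.3 and 48.8 FPKM, a log2 ratio of 0.27. The catalytic subunit was the scarcest transcript of its complex in both genotypes. Prim1, the catalytic primase subunit, had 38.7 FPKM in the Hb9 control and 49.6 FPKM in A2 SMA, a log2 ratio of 0.36. Prim2, the large primase subunit, had 32.9 and 39.0 FPKM, a log2 ratio of 0.25. Among these 4 transcripts the highest level was 2.88 times the lowest in Hb9 control MNs and 1.61 times in A2 SMA MNs.

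Polymerase epsilon copies the leading strand. Its catalytic subunit Pole had 30.8 FPKM in the Hb9 control and 39.4 FPKM in A2 SMA, a log2 ratio of 0.36. Its accessory subunit Pole2 had 20.8 and 33.9 FPKM, a log2 ratio of 0.70. Polymerase delta copies the lagging strand, and the measured members Pold1 and Pold2 had higher levels than Pole and Pole2. Pold1, its catalytic subunit, had 131 FPKM in the Hb9 control and 187 FPKM in A2 SMA, a log2 ratio of 0.51. Pold2, an accessory subunit, had 137 and 149 FPKM, a log2 ratio of 0.12. The entries of Pold1 and Pold2 carried status FAIL.

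The sliding clamp and its loader had the second lowest median log2 ratio of the roles, 0.11 over 6 genes. Pcna, the clamp that holds polymerases on DNA, had 12.0 FPKM in the Hb9 control and 13.02 FPKM in A2 SMA, a log2 ratio of 0.12. That level is uncertain, since Pcna-ps2, a processed copy of Pcna on chromosome 19, was listed at 69.4 and 88.0 FPKM, a log2 ratio of 0.34, and reads of the pair could have been split between the entries. As listed, the Pcna entry was lower in level than every subunit of the clamp loader in both genotypes. That rank rests on the same uncertain split.

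Of the replication factor C subunits that load the clamp, Rfc5 had 29.7 FPKM in the Hb9 control and 45.5 FPKM in A2 SMA, a log2 ratio of 0.62. Rfc1, the large subunit, had 56.8 and 69.4 FPKM, a log2 ratio of 0.29. The remaining 3 were close to equal between the genotypes. Rfc2 had 89.0 FPKM in the Hb9 control and 95.2 FPKM in A2 SMA, a log2 ratio of 0.10. Rfc3 had 62.8 and 59.8 FPKM, a log2 ratio of −0.07 that was 0.22 relative to the median gene. Rfc4 had 98.6 and 95.8 FPKM, a log2 ratio of −0.04 that was 0.25 relative to the median gene. Rfc5 was the scarcest subunit in both genotypes.

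Lig1, the ligase that seals Okazaki fragments, was the most abundant transcript of the set. It had 212 FPKM in the Hb9 control and 273 FPKM in A2 SMA, a log2 ratio of 0.36. Fen1, the nuclease that trims those fragments, had 64.6 and 88.7 FPKM, a log2 ratio of 0.46. RPA covers single-stranded DNA at the fork, and its 3 subunits were all higher, where 34.1% of all genes were. Rpa1 had 133 FPKM in the Hb9 control and 188 FPKM in A2 SMA, a log2 ratio of 0.50. Rpa2 had 84.6 and 132 FPKM, a log2 ratio of 0.64. Rpa3 had 31.7 and 34.6 FPKM, a log2 ratio of 0.13. The smallest subunit thus had both the lowest level and the smallest log2 ratio of the complex.

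The deoxynucleotide enzymes differed among themselves. Tyms, thymidylate synthase, had 23.0 FPKM in the Hb9 control and 38.4 FPKM in A2 SMA, a log2 ratio of 0.74. Both subunits of ribonucleotide reductase were instead lower. Rrm1, the large subunit, had 89.4 and 69.4 FPKM, a log2 ratio of −0.36 that was −0.07 relative to the median gene. Rrm2, the subunit made in S phase, had 100.2 and 93.2 FPKM, a log2 ratio of −0.11 that was 0.18 relative to the median gene. Orc4 and Rrm1 were the only members that stayed lower relative to the median gene.

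Of the 41 genes, 8 (19.5%) lie on chromosome 5, which holds 6.24% of all genes compared, and these were Orc5, Mcm7, Pole, Rfc1, Rfc2, Rfc3, Rfc5 and Tyms. Of the 41 genes, 12 share their locus with other expressed genes, 3 of them on chromosome 5, so that reads could be split between overlapping transcripts. The 29 with no other expressed entry in their locus had a median log2 ratio of 0.44. Of them 25 (86.2%) were higher, against 34.1% of all genes. Orc5 is among these 29, although its entry also holds the gene Gm15421.

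Of the other genes of DNA replication, a list of 44 that included checkpoint, chromatin and topology factors, 43 were compared. Their median log2 ratio was 0.25 and 27 (62.8%) were higher, against 34.1% of all genes. Past 2-fold, 3 (6.98%) were higher, close to the 6.83% of all genes, and 3 (6.98%) were lower, against 22.4%. Rif1, which sets replication timing, had 50.2 FPKM in the Hb9 control and 118 FPKM in A2 SMA, a log2 ratio of 1.23. Ticrr, which brings Cdc45 to MCM, is listed as 5730590G19Rik and had 18.2 and 42.5 FPKM, a log2 ratio of 1.22. Hells, a chromatin remodeller, had 118 and 236 FPKM, a log2 ratio of 1.00. Some genes of the same list were lower. Pold4, the small subunit of polymerase delta, had 19.3 FPKM in the Hb9 control and 7.0 FPKM in A2 SMA, a log2 ratio of −1.46. Top2b, the topoisomerase II of non-dividing cells, had 132 and 51.9 FPKM, a log2 ratio of −1.35. Pclaf, a clamp-binding protein listed as 2810417H13Rik, had 33.2 and 13.3 FPKM, a log2 ratio of −1.32. Top2a, the topoisomerase II of dividing cells, was the most abundant of the list. It had 384 and 334 FPKM, a log2 ratio of −0.20 that was above 0 relative to the median gene, in an entry that also holds a small nucleolar RNA gene.

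Genes of nucleotide supply outside the set had a median log2 ratio of 0.32 over 27 entries, of which 19 (70.4%) were higher, 2 (7.41%) at least 2-fold higher and 1 (3.7%) at least 2-fold lower, against 34.1%, 6.83% and 22.4% of all genes. Ppat, the first enzyme of purine synthesis, had 34.4 FPKM in the Hb9 control and 81.1 FPKM in A2 SMA, a log2 ratio of 1.24. Mthfd1, a one-carbon folate enzyme, had 60.2 and 126 FPKM, a log2 ratio of 1.07. The most abundant were the kinase genes Nme1 and Nme2, which share an entry with 308 and 244 FPKM, and Uck2 with 192 and 226 FPKM.

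Of the 18 E2F and RB family genes, which time S phase, 5 (27.8%) were higher, near the 34.1% of all genes, and the median log2 ratio was −0.23, which was 0.06 relative to the median gene. Mybl2, a transcription factor of dividing cells that E2F regulates, had 58.3 FPKM in the Hb9 control and 262 FPKM in A2 SMA, a log2 ratio of 2.16. E2f6, a repressor, had 41.2 and 18.1 FPKM, a log2 ratio of −1.19. Rbl2, the pocket protein p130, had 11.6 and 5.53 FPKM, a log2 ratio of −1.06. At least 2-fold higher was 1 of the 18 and at least 2-fold lower were 3 (16.7%), against 6.83% and 22.4% of all genes. The third lower gene, E2f2, an activator named here after its values were seen, had 8.08 and 2.88 FPKM, a log2 ratio of −1.49. E2f4, the most abundant of the list in the Hb9 control, had 64.5 and 88.4 FPKM.

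Of 17 compared cyclins, cyclin-dependent kinases and inhibitors of G1 and S phase, 7 (41.2%) were higher and 5 (29.4%) were at least 2-fold lower, against 34.1% and 22.4% of all genes, and the median log2 ratio was −0.19, which was 0.10 relative to the median gene. Ccnd2, cyclin D2, had 80.0 FPKM in the Hb9 control and 15.9 FPKM in A2 SMA, a log2 ratio of −2.33. Ccnd1, cyclin D1, had 93.8 and 36.8 FPKM, a log2 ratio of −1.35. The inhibitors Cdkn1c and Cdkn1b were lower as well. Cdkn1c had 176 FPKM in the Hb9 control and 73.2 FPKM in A2 SMA, a log2 ratio of −1.27. Cdkn1b had 62.1 and 29.9 FPKM, a log2 ratio of −1.05. Higher genes of the list, also named after their values were seen, included Ccne1, cyclin E1, with 54.7 and 101.4 FPKM, a log2 ratio of 0.89. Ccnd3, cyclin D3, had 53.4 and 98.0 FPKM, a log2 ratio of 0.88. Cdk4, the most abundant, had 819 and 729 FPKM, a log2 ratio of −0.17 that was above 0 relative to the median gene.

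Of these lists, that of mitosis had the median log2 ratio nearest to that of the replication genes. Of its 30 genes 28 (93.3%) were higher, against 34.1% of all genes, none was past 2-fold in either direction, and the median log2 ratio was 0.38. Status FAIL was on 14 of the 30 entries, against 14% of all genes, Cenpa among them. Of the genes named from the other lists, Rif1, Mthfd1, Uck2, Ccnd2, Cdkn1c and Ccne1 carried it too. Cdk1, the mitotic kinase, had 213 FPKM in the Hb9 control and 335 FPKM in A2 SMA, a log2 ratio of 0.65. Cenpa, the centromeric histone, had 150 and 182 FPKM. The plot of cumulative distributions shows the curves of the replication and mitosis genes close together and to the right of that of all genes. No test of these lists against each other was made.

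**Figure D3:**
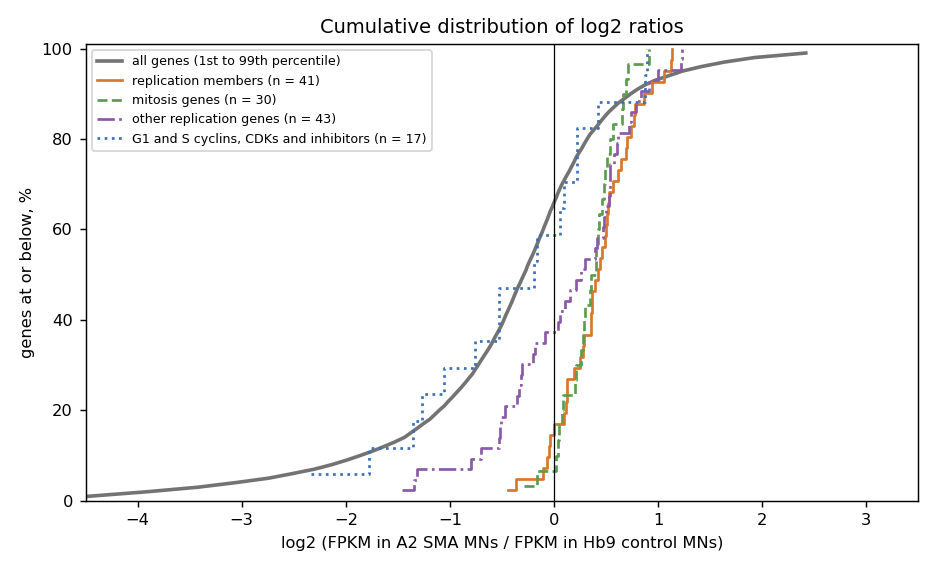
Percent of genes (y axis) at or below each log2 ratio of A2 SMA over Hb9 control FPKM (x axis) for all 14926 genes, the 41 replication genes, 30 mitosis genes, 43 other replication genes and 17 G1 and S phase regulators. The curves of the replication and mitosis genes (medians 0.42 and 0.38) rise steeply to the right of the curve of all genes (median −0.29), while that of the G1 and S phase regulators (median −0.19) lies near that of all genes.

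Markers of other cell types also differed between the genotypes, by more than the replication genes did. All 12 pluripotency markers were at least 2-fold higher in A2 SMA MNs, and their summed level was 319 FPKM in the Hb9 control and 2017 FPKM in A2 SMA. Pou5f1 had 98.3 and 775 FPKM, Utf1 had 59.8 and 357 FPKM, and Nanog had 41.4 and 236 FPKM. Of 12 listed pan-neuronal markers 10 were found, none was higher, and their sum was 1499 FPKM in the Hb9 control and 145 FPKM in A2 SMA. Nefm had 359 and 15.2 FPKM, Nefl had 297 and 17.0 FPKM, and Stmn2 had 242 and 78.0 FPKM. Of 12 listed markers of neural progenitors, dividing cells of the neural lineage, 11 were found and 1 was higher, and the sum was 2812 and 463 FPKM. Vim had 1436 and 178 FPKM and Fabp7 had 553 and 5.52 FPKM, while Sox2, which mESCs also express, had 179 and 197 FPKM. Among the MN markers Isl1 had 108 and 5.95 FPKM and Lhx3 had 27.6 and 0.348 FPKM. Fibroblast markers summed to 77.8 and 39.4 FPKM, with 2 of 9 compared higher, and their most abundant genes were Col1a2 with 20.1 and 8.93 FPKM, Col1a1 with 18.9 and 9.41 FPKM and Col3a1 with 15.9 and 6.57 FPKM. The part of these marker differences in the log2 ratios of the replication genes was not tested. Of the markers named, the entries of Utf1, Stmn2 and Col1a1 carried status FAIL.

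E2F letters were more frequent in the promoters of the replication genes than in promoters at large. A window was held for 35 of the 43 listed genes, and 14 of the 35 (40.0%) had at least 1 E2F match, against 2.60% of all 27025 genes with a window and 4.76% of the 9547 compared genes with one. No window was held for Gins1, Gins2, Gins4, Gmnn, Mcm4, Pole, Prim2 and Rfc2. Among other replication genes 11 of 37 (29.7%) had a match, among G1 and S phase regulators 3 of 13 (23.1%) and among mitosis genes 1 of 25 (4%). None of these shares was tested.

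The 20 matches in the 14 genes lay at positions −165 to 47 from the start, 12 of them before it. Orc1 has its match at −27 to −20 and Pola1 at −138 to −131, counted from the start. Mcm3 has matches after the start only, at 20 to 27 and 39 to 46. In Mcm7 a match at 17 to 24 overlaps a CCAAT box (CCAAT on either strand), the only such overlap, and no match overlaps a GC box (GGGCGG on either strand). CCAAT boxes were in 65.7% of the 35 windowed genes, against 42.9% of compared genes, and GC boxes in 74.3% against 69.5%.

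**Figure D4:**
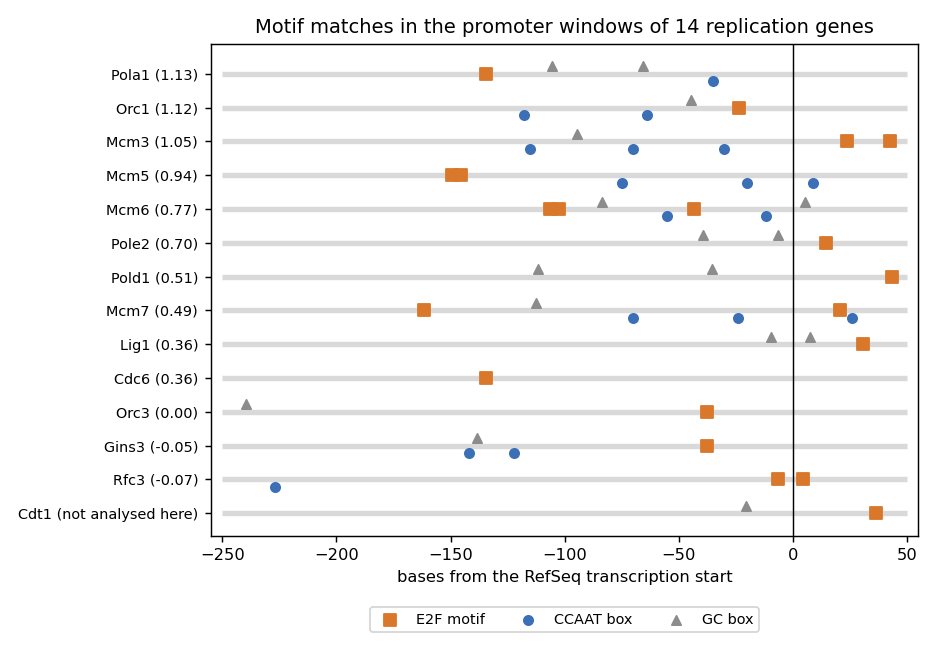
Position of E2F motif, CCAAT box and GC box matches (x axis, bases from the RefSeq transcription start) in promoter windows of the 14 replication genes with an E2F match. The 13 measured ones are ordered by log2 ratio (y axis, log2 ratio of A2 SMA over Hb9 control FPKM in brackets). Cdt1, whose level was not analysed here, is last. E2F matches run from −165 to 47, and the 13 measured genes that carry them range in log2 ratio from 1.13 for Pola1 to −0.07 for Rfc3.

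The log2 ratios of genes with and without these letters overlapped widely. The 13 measured members with an E2F match had a median log2 ratio of 0.51 and 11 were higher, and the 21 without one had a median of 0.42 and 17 were higher. All 3 members past 2-fold, Orc1, Mcm3 and Pola1, had a match, as did Gins3 and Rfc3, which were slightly lower. Over all compared genes, the 454 with a match had a median log2 ratio of −0.13 and 41.4% were higher, and the 9093 without one had −0.31 and 33.2%. These are descriptions of the letters in a window of fixed length and say nothing of E2F binding in these cells.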

How the data were processed

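Total RNA of FACS-sorted MNs (3 samples per genotype) was prepared with a TruSeq RNA kit; strand use is not given in the sources used here. Per the study's methods and processing notes, the authors trimmed reads (FastQC 0.10.1, cutadapt), mapped them to NCBI m37 with TopHat 2.04 and ran Cufflinks and Cuffdiff. The deposited table gives FPKM as 1 pooled value per gene and genotype, so neither a value nor a depth per sample can be read from it, and no test or error was possible. Its fold change, p-value and q-value columns hold the authors' own comparison and were not used.

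Log2 ratios of FPKM (no pseudocount) were computed in Python 3.11.15 with pandas 2.3.3 for named genes that reached 1 FPKM in a genotype and were above 0 in both; of several entries for a symbol the one with the highest FPKM was taken. The calculation was tested on simulated data. Members and lists were chosen with earlier results of these data known. Named beside the members are, per list, at most 5 genes past 2-fold with at least 10 FPKM and the most abundant 2 (3 for markers); 1 MN marker is not reported here. Alternatives were another scaling, pseudocount, filter, entry rule and fold threshold. Table positions are given counted from 1. Promoter sequences are RefSeq's, build GRCm38.p6, matched by symbol.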

Additional observations from a re-analysis of the deposited data

How the results depend on the processing

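Over 583 recomputed values, 579 (counts, medians and log2 ratios) moved by less than 1.5-fold, a tolerance used because no spread between samples exists. The exceptions were the count of members at least 2-fold higher (3), which was 8 with log2 ratios centred on the median gene, 10 on the upper quartile of FPKM, 5 on Gusb, Pgk1 and Rpl13a, and 12 at a 1.5-fold threshold. These settings shift every log2 ratio by a constant (0.29, 0.32 and 0.14) or lower the threshold. Each shift is below the tolerance (0.585 on the log2 scale), so no median or log2 ratio could have passed it under these scalings. The filters on level could not change the members either, since all were above 5 FPKM. The 579 values are therefore no measure of stability. Over all alternatives the members' median log2 ratio ran from 0.39 to 0.75, the count higher from 28 (of 34, without entries of status FAIL) to 39, and none was at least 2-fold lower. Gins3, Rfc3, Rfc4 and Rrm2 became higher under each of the 3 scalings, and Orc4 and Rrm1 stayed lower. The median of the deoxynucleotide enzymes (−0.11) likewise became 0.18, 0.22 and 0.04. The median log2 ratio ran from 0.33 to 0.70 for mitosis genes, 0.18 to 0.58 for other replication genes, 0.11 to 0.65 for nucleotide supply genes, −0.26 to 0.09 for E2F and RB genes and −0.36 to 0.13 for G1 and S phase regulators; the last 2 lists changed sign when centred on the median gene or the upper quartile. No paired analysis was possible because the table holds 1 pooled value per genotype, and leaving out a sample could not be done for the same reason.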
